A study of Mus musculus with 12 samples.

Results

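The LIN28 axis and its oncofetal RNA-binding partners were followed through newborn mouse forebrain and forebrain tumor tissue. The set comprised Lin28a, Lin28b, Igf2bp1, Igf2bp3, Hmga2, Trim71, Dis3l2, Arid3a and Sall4, chosen by name. All 9 were found among the 19938 genes with a probe set of 1 gene symbol, and each was read from its brightest probe set, by the mean of all 12 arrays. Igf2bp1 alone had a second probe set. No filter on dim genes was applied, so no member was dropped. In the stricter settings described later, 8 of the 9 lay above the 40th percentile of their array in at least 3 of 12 arrays and Lin28b did not, and 5 lay above the 60th, namely Lin28a, Igf2bp3, Trim71, Arid3a and Sall4.

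RNA came from mice at postnatal day 0, with 3 biological replicates and 1 Affymetrix Mouse Gene 1.0 ST array per replicate. GBS samples were tumor tissue of hGFAP-cre::Ctnnb1(ex3)Fl/+SmoM2Fl/+ mice, GS samples were forebrain of hGFAP-cre::SmoM2Fl/+ mice, GB samples were forebrain of hGFAP-cre::Ctnnb1(ex3)Fl/+ mice, and Control samples were forebrain of Ctnnb1(ex3)Fl/+SmoM2Fl/+ mice without Cre. The human GFAP promoter drives Cre in radial glia, and recombined alleles pass to their descendants, so cells outside that lineage keep unrecombined alleles. SmoM2 is a Smoothened that signals without ligand and turns on Sonic hedgehog targets, and the Ctnnb1 allele loses exon 3 on recombination, so that beta-catenin is no longer marked for degradation. The mice were studied as a model of a childhood brain tumor, the embryonal tumor with multilayered rosettes. Control was the only genotype without Cre, so an effect of Cre itself cannot be told apart from that of an allele in comparisons with Control. Only GBS samples were tumor tissue, so an effect of the alleles and a difference between tumor and forebrain tissue cannot be told apart there. Nothing beyond the replicate label says how the replicates were collected, so p-values measure the spread between these samples.

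LIN28A and LIN28B are RNA-binding proteins of early embryonic cells. They bind precursors of the let-7 microRNAs, terminal uridylyl transferases then add uridines to the precursor, and the exonuclease DIS3L2 degrades it. Mature let-7 in turn represses transcripts such as Hmga2, Trim71, the Igf2bp genes and Lin28b, which ties these genes into a mutual repression circuit that shifts as progenitors mature. LIN28A protein is a diagnostic marker of embryonal tumors with multilayered rosettes in patients.

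The let-7 family is shown first because the members meet at it. The RefSeq sequences (GRCm38.p6) of 9 mature names shared 1 seed, bases 2 to 8, printed in capitals below.
let-7a-5p: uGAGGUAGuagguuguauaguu
let-7b-5p: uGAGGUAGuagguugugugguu
let-7c-5p: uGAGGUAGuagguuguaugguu
let-7d-5p: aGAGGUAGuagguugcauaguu
let-7e-5p: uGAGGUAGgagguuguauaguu
let-7f-5p: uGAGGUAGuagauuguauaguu
let-7g-5p: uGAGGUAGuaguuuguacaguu
let-7i-5p: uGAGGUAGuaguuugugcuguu
miR-98-5p: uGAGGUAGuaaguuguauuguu

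LIN28 recognises GGAG in the loop of the precursor. Of the 12 let-7 hairpins in RefSeq, 9 held GGAG between the arms of the hairpin and 3 did not (Mirlet7b, Mirlet7c-2 and Mir98). Anywhere in the hairpin, a looser condition than between the arms, 447 of 1005 mouse hairpins of the table held these letters, or 44.5%. A match is a run of letters and not a measured binding site. Hairpins with the motif (capitals) and one without are given from GRCm38.p6, with Mirlet7g at chr9:106178840-106178927 on the plus strand, Mirlet7a-1 at chr13:48538179-48538272 on the minus strand and Mir98 at chrX:151913214-151913321 on the plus strand.
Mirlet7g: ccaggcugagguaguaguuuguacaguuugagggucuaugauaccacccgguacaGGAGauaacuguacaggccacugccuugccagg
Mirlet7a-1: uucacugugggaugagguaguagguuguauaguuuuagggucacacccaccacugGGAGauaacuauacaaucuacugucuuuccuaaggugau
Mir98: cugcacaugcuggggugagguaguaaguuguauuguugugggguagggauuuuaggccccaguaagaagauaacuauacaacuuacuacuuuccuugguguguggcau

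Values are RMA values on a log2 scale, where a difference of 1 is a doubling of signal, and a level of one probe set cannot be set against that of another. A gene was called where limma's moderated test gave p under 0.05 after Benjamini-Hochberg adjustment across 19938 genes, and every adjusted p below comes from that fit. Array medians ran from 6.52 to 6.69. The receptor level, the median of 1190 olfactory and vomeronasal receptor genes that forebrain is not known to use, ran from 4.84 to 4.92 in GBS, from 4.88 to 5.23 in GS, from 5.02 to 5.35 in GB and from 5.12 to 5.23 in Control. The median gene differed by -0.14 between GBS and Control, and by -0.07 once arrays were centred on their medians, so member differences are to be read against that shift. Xist lay between 8.66 and 10.83 in 2 GS and 2 GB arrays and between 4.85 and 5.02 in the other 8, so GS and GB mixed the sexes and GBS and Control did not. The targets of both alleles rose in GBS against Control: Ptch1 by 2.38 (5.22-fold, adjusted p = 2.93e-06) and Axin2 by 1.78 (3.43-fold, adjusted p = 2.06e-05). Ctnnb1 rose by 0.91 (adjusted p = 0.0149), while Smo differed by 0.32 and was not called (adjusted p = 0.0681). All 8 forebrain identity genes analysed here lay above the median of at least 1 array, and 5 of them above it in all 12. Their levels differed between GBS and Control in both directions. Emx2, Pax6 and Lhx2 were called higher (1.88, 1.48 and 0.58), and Tbr1 and Bcl11b lower (-1.09 and -0.4). Among all genes 8.04% were called higher and 3.59% lower.

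Against Control, GBS tumors had lower Lin28a and Lin28b and higher Igf2bp3, and the other 6 members were not called. That is 1 member higher, where 8.04% of all genes were called higher, and 2 lower, where 3.59% were called lower. In all, 11.6% of genes were called in this comparison. The median difference of the 9 members was -0.16, beside -0.14 for all genes. For 7 members the 3 GBS arrays and the 3 Control arrays did not overlap, a condition that 62.6% of all genes met; 2 members lay wholly above (22.1% of all genes) and 5 wholly below (40.5%). At an unadjusted p under 0.05 there were 4 members, beside 36.4% of all genes. Tissue was measured in bulk, so fewer cells of a type and less RNA per cell cannot be told apart in any of these values.

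**Figure D1:**
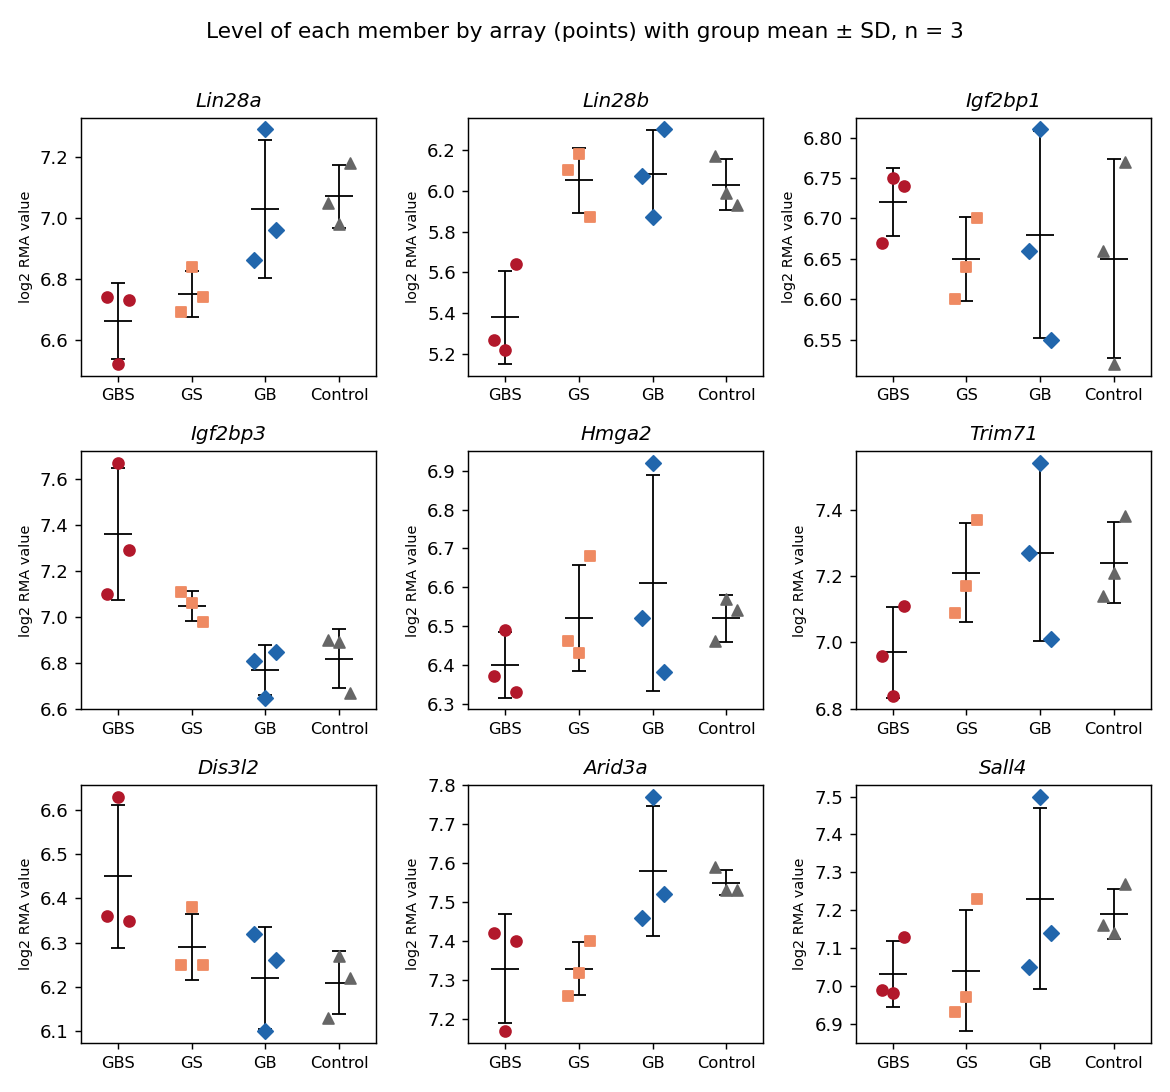
Level of the 9 members on each array, in log2 RMA values, by genotype (GBS, GS, GB, Control); points are arrays and bars are the group mean ± SD (n = 3). The 3 GBS arrays of Lin28b sit between 5.22 and 5.64, below all 9 other arrays, and those of Igf2bp3 sit between 7.1 and 7.67.

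Lin28a encodes the cytoplasmic LIN28 of pluripotent and early neural cells. Its log2 level was 6.74, 6.52 and 6.73 in GBS, 6.69, 6.84 and 6.74 in GS, 6.86, 7.29 and 6.96 in GB, and 7.05, 6.98 and 7.18 in Control. Both GBS and GS arrays all lay below the lowest Control array, while GB overlapped Control. The group means were 6.66 ± 0.125 in GBS, 6.75 ± 0.076 in GS, 7.03 ± 0.226 in GB and 7.07 ± 0.102 in Control (SD, n = 3 each), and the means of GBS and GS, and those of GB and Control, differed by less than 1 SD of the wider group. Lin28a fell by 0.41 on the log2 scale in GBS against Control (SE 0.12, 95% interval -0.67 to -0.15), so Control was 1.33-fold higher, with an adjusted p of 0.0485. That call was lost in 16 of 25 alternative settings, among them every omission of a GBS, GS or Control array (without GBS replicate 2, -0.34 and adjusted p = 0.202), and its adjusted p ran from 0.00549 to 0.392. With the receptor level as a covariate the Lin28a difference was -0.21 (adjusted p = 0.392). The receptor level of GBS arrays (4.84 to 4.92) lay wholly below that of Control (5.12 to 5.23) and of GB (5.02 to 5.35). Receptor level and genotype therefore go together in these comparisons, and the covariate fit cannot separate them for any gene. LIN28A is the diagnostic protein of the human tumor, but these arrays read RNA of the tissue, and no GBS array had a Lin28a level above any Control array.

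Lin28b encodes the LIN28 paralog that persists later in fetal life. Its log2 level was 5.27, 5.22 and 5.64 in GBS, 6.1, 6.18 and 5.87 in GS, 6.07, 5.87 and 6.3 in GB, and 6.17, 5.99 and 5.93 in Control. Every GBS array lay below every other array, and the 3 other genotypes overlapped each other throughout. Means were 5.38 ± 0.229 in GBS, 6.05 ± 0.161 in GS, 6.08 ± 0.216 in GB and 6.03 ± 0.127 in Control (SD, n = 3 each). Lin28b fell by 0.65 in GBS against Control (SE 0.146, 95% interval -0.97 to -0.33, adjusted p = 0.0178), with Control 1.57-fold higher. It was a dim probe set, below the array median on all 12 arrays, and RMA compresses differences near the floor. Of the 9 members, only 3 lay above the array median on all 12 arrays, so low signal was not confined to Lin28b. The Lin28b call held in 17 of the 23 settings that tested it, several of which leave the difference at -0.65. It was lost with quantile normalization (-0.54, adjusted p = 0.0758) and at an adjusted p under 0.01. Omission of GBS replicate 1 (adjusted p = 0.0532) or GBS replicate 2 (-0.58, adjusted p = 0.0913) also removed it. So did omission of Control replicate 1 (adjusted p = 0.075) or Control replicate 2 (adjusted p = 0.051). Unlike Lin28a, its difference was larger with the receptor level as a covariate (-0.91, adjusted p = 0.00463), with the same limit on that fit.

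Promoter sequences are given for the 3 called members. RefSeq's promoter table held a 300-base window around the start of 6 members (GRCm38.p6). It held none for Igf2bp1, Arid3a and Sall4, which were not searched. The Lin28a window (chr4:134018767-134019066, minus strand) had 63.3% GC and 10 CpG, that of Lin28b (chr10:45470152-45470451, minus strand) had 39% GC and 8 CpG, and that of Igf2bp3 (chr6:49214905-49215204, minus strand) had 60.3% GC and 25 CpG. On both strands 5 motifs were searched: CTTTGA (TCF/LEF, in 16% of 32851 promoters), GACCACCCA (GLI, in 0.253%), its core CACCCA, which lies within the longer GLI motif (in 22.2%), the E-box CACGTG (in 7.15%) and AACAAT (SOX, in 10.7%). Matches are in capitals. Lin28a held 1 CTTTGA from base 179, Lin28b held 1 CACGTG from base 202, and Igf2bp3 held 2 CACGTG from bases 228 and 256. Dis3l2 held 1 CACCCA from base 39, and neither Hmga2 nor Trim71 held a match. These are descriptions of the letters, and binding was not measured.
Lin28a: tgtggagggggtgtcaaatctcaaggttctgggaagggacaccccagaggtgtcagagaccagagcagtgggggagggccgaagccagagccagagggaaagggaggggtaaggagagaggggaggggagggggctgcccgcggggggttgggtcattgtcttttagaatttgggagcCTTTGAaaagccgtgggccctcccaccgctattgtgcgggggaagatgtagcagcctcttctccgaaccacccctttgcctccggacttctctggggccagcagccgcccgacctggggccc
Lin28b: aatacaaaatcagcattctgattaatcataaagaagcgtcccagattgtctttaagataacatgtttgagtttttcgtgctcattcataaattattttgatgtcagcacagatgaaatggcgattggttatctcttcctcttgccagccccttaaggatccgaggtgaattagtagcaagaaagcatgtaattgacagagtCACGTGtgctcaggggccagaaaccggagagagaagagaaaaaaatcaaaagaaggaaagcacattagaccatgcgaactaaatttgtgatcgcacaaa
Igf2bp3: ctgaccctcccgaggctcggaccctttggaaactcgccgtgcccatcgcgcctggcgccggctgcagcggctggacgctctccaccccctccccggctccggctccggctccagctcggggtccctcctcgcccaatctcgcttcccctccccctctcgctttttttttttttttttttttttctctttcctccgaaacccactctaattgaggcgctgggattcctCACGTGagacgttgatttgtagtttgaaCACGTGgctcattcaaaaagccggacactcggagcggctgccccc

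Igf2bp3 encodes an oncofetal mRNA-binding protein that stabilises growth-related transcripts. Its log2 level was 7.1, 7.67 and 7.29 in GBS, 7.11, 7.06 and 6.98 in GS, 6.81, 6.65 and 6.85 in GB, and 6.9, 6.89 and 6.67 in Control. All GBS and all GS arrays lay above all Control arrays, and GBS replicate 2 was the highest of the 12. Means were 7.36 ± 0.287 in GBS, 7.05 ± 0.0653 in GS, 6.77 ± 0.109 in GB and 6.82 ± 0.13 in Control (SD, n = 3 each). Igf2bp3 rose by 0.53 in GBS against Control (SE 0.135, 95% interval 0.24 to 0.83), 1.45-fold, with an adjusted p of 0.03. The call held in 17 of 25 settings. It was lost without GBS replicate 2 (0.38, adjusted p = 0.111) and without GBS replicate 3 (adjusted p = 0.0574). Omission of Control replicate 1, 2 or 3 also removed it (adjusted p = 0.069, 0.0643 and 0.127). So did the receptor level as a covariate (0.33, adjusted p = 0.233), the replicate block (adjusted p = 0.0631) and an adjusted p under 0.01. The difference ran from 0.33 to 0.66 over the settings, many of which cannot change it.

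Igf2bp1, its paralog with the same RNA-binding architecture, was not called in any comparison. Its log2 level was 6.67, 6.75 and 6.74 in GBS, 6.6, 6.64 and 6.7 in GS, 6.66, 6.81 and 6.55 in GB, and 6.66, 6.52 and 6.77 in Control. The genotypes overlapped throughout. The GBS minus Control difference was 0.07, with a 95% interval of -0.13 to 0.28 (adjusted p = 0.54). The second Igf2bp1 probe set differed by -0.01 (SE 0.09, adjusted p = 0.933).

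Hmga2 and Trim71 are classic let-7 targets. Hmga2, a chromatin architectural protein of fetal neural stem cells, was at 6.37, 6.49 and 6.33 in GBS, 6.46, 6.43 and 6.68 in GS, 6.52, 6.92 and 6.38 in GB, and 6.46, 6.57 and 6.54 in Control. Groups overlapped, and GBS minus Control was -0.13 (95% interval -0.41 to 0.16, adjusted p = 0.442). Trim71, the ubiquitin ligase also known as LIN41, was at 6.96, 6.84 and 7.11 in GBS, 7.09, 7.17 and 7.37 in GS, 7.27, 7.54 and 7.01 in GB, and 7.14, 7.21 and 7.38 in Control. Its GBS arrays all lay below Control, by 0.27 on average with a 95% interval of -0.58 to 0.03 for GBS minus Control (adjusted p = 0.167), which did not pass the test.

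Arid3a and Sall4 encode nuclear proteins of embryonic cells, an AT-rich DNA-binding factor and a zinc finger factor of pluripotent cells. Arid3a was at 7.42, 7.17 and 7.4 in GBS, 7.26, 7.32 and 7.4 in GS, 7.46, 7.77 and 7.52 in GB, and 7.59, 7.53 and 7.53 in Control. GBS and GS arrays were all below Control. GBS minus Control was -0.22 for Arid3a (95% interval -0.45 to 0.01, adjusted p = 0.146), not called. Sall4 was at 6.99, 6.98 and 7.13 in GBS, 6.93, 6.97 and 7.23 in GS, 7.05, 7.5 and 7.14 in GB, and 7.16, 7.14 and 7.27 in Control. The Sall4 difference was -0.16 (95% interval -0.43 to 0.12, adjusted p = 0.333), close to that of the median gene, although the GBS arrays did not overlap Control.

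Dis3l2, the exonuclease that degrades uridylated let-7 precursors, was at 6.36, 6.63 and 6.35 in GBS, 6.25, 6.38 and 6.25 in GS, 6.32, 6.1 and 6.26 in GB, and 6.13, 6.27 and 6.22 in Control. All GBS arrays lay above all Control arrays. GBS minus Control was 0.24 (SE 0.102, 95% interval 0.02 to 0.47), with an adjusted p of 0.119, so Dis3l2 was not called.

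**Figure D2:**
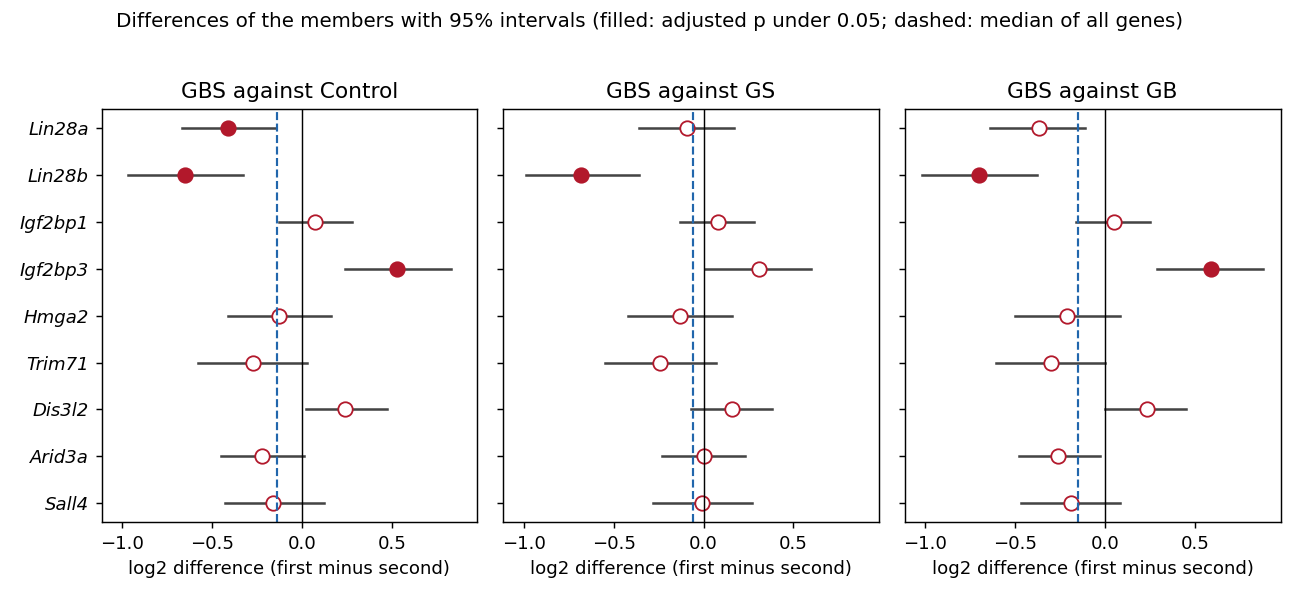
Log2 difference of each member in GBS against Control, GS and GB (x axis, first minus second), with 95% intervals; filled points have an adjusted p under 0.05 and the dashed line is the median of all genes. Lin28b is filled in all 3 panels (-0.65, -0.68 and -0.7), Igf2bp3 against Control and GB, and Lin28a against Control.

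Lin28b was also called lower in GBS tumors against each single allele. These comparisons share the GBS arrays with each other and with the comparison to Control, so they are not separate evidence. Against GS, 1 member was called, Lin28b, lower by 0.68 (SE 0.146, 95% interval -0.99 to -0.36 for GBS minus GS, adjusted p = 0.028), where 3.52% of all genes were called, 2.49% higher and 1.02% lower. The call was lost in 9 of 23 settings, among them quantile normalization (adjusted p = 0.1) and the omission of GBS replicate 2 (-0.6, adjusted p = 0.145). GS was 1.6-fold higher, and its arrays lay wholly above those of GBS for Lin28b alone among the members, where 25.6% of all genes had separated arrays. At an unadjusted p under 0.05 there were 2 members, beside 15.9% of all genes. Lin28a differed by -0.09 there (95% interval -0.36 to 0.17, adjusted p = 0.75) and Igf2bp3 by 0.31 (95% interval 0.01 to 0.6, adjusted p = 0.294), with overlapping arrays for both.

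Against GB, 1 member was called higher and 1 lower, where 8.83% of all genes were called, 6.48% higher and 2.35% lower. Arrays were separated for 5 members, beside 46% of all genes, and 5 had an unadjusted p under 0.05, beside 39.6%. Lin28b differed by -0.7 (95% interval -1.02 to -0.38, adjusted p = 0.017) and GB was 1.63-fold higher. Igf2bp3 differed by 0.59 (95% interval 0.29 to 0.88, adjusted p = 0.0256), 1.5-fold higher in GBS. Lin28a was lower in all 3 GBS arrays than in all 3 GB arrays, at -0.37 (95% interval -0.64 to -0.11), and was not called (adjusted p = 0.0672). In a fit of the GBS and GB arrays alone neither call held: Lin28b had an adjusted p of 0.118 and Igf2bp3 of 0.144. Without GBS replicate 2 neither was called either.

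With one allele alone, no member was called. In GS against Control limma called 0 of 9 members, beside 0.015% of all genes, and 1 member had an unadjusted p under 0.05, beside 5.9% of all genes. That member was Lin28a, with a difference of -0.32 (95% interval -0.58 to -0.06, unadjusted p = 0.0219, adjusted p = 0.663). Arid3a differed by -0.22 (95% interval -0.45 to 0, adjusted p = 0.663), and its 3 GS arrays, like those of Lin28a, lay below all Control arrays. With Igf2bp3, whose GS arrays lay above Control, 3 members had separated arrays, beside 16.9% of all genes. With array weights 3 members were called lower, Lin28a, Arid3a and Sall4. That fit called 7398 of 19938 genes, 4061 of them lower. In GB against Control limma called 0 of 9, beside 0% of all genes, no member had an unadjusted p under 0.05, beside 1.09% of genes, and no member had separated arrays, beside 4.07% of genes. GS against GB gave 0 of 9 members called, beside 0.01% of genes, with 2 at an unadjusted p under 0.05, beside 7.55%, and 3 with separated arrays, beside 9.05%.

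An interaction asks whether the beta-catenin allele moved a gene differently when SmoM2 was present, as (GBS minus GS) minus (GB minus Control). Since only GBS was tumor tissue, effects of tissue and of alleles cannot be told apart in this term. No member was called in the limma fit, beside 0.231% of all genes, and 1 had an unadjusted p under 0.05, beside 7.18%. It was Lin28b, at -0.72 (SE 0.206, 95% interval -1.18 to -0.27, unadjusted p = 0.0047, adjusted p = 0.333). The Lin28b interaction was called in 3 of 22 alternative settings and not in the other 19. These 3 were the receptor level as a covariate (-0.83, adjusted p = 0.0375), omission of 3 arrays that deviated together (-0.87, adjusted p = 0.0486) and array weights. They called 244, 363 and 840 genes, beside 46 in the reported fit. With 1 array left out, the limma adjusted p for Lin28b ran from 0.16 to 0.73. For Igf2bp3 the interaction was 0.36 (95% interval -0.06 to 0.78, adjusted p = 0.774).

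The arrays with the highest and the lowest receptor level stood at the ends of the range for several members. GB replicate 2 had the highest receptor level, 5.35, and it was the highest of all 12 arrays for 6 members (Lin28a, Igf2bp1, Hmga2, Trim71, Arid3a and Sall4). For Lin28b, Igf2bp3 and Dis3l2 it was the lowest of the 9 arrays outside GBS. GBS replicate 2, with the lowest receptor level of 4.84, was the lowest array for Lin28a, Lin28b, Trim71 and Arid3a and the highest for Igf2bp3 and Dis3l2, so Lin28b was low on both arrays. Deviations from the group mean of GB replicate 2, GS replicate 3 and Control replicate 3 correlated across genes at 0.739 to 0.833. Without these 3 arrays GBS minus Control was -0.36 for Lin28a (adjusted p = 0.016), -0.71 for Lin28b (adjusted p = 0.00228) and 0.46 for Igf2bp3 (adjusted p = 0.0225). Which property of the RNA or array sets the receptor level was not tested.

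**Figure D3:**
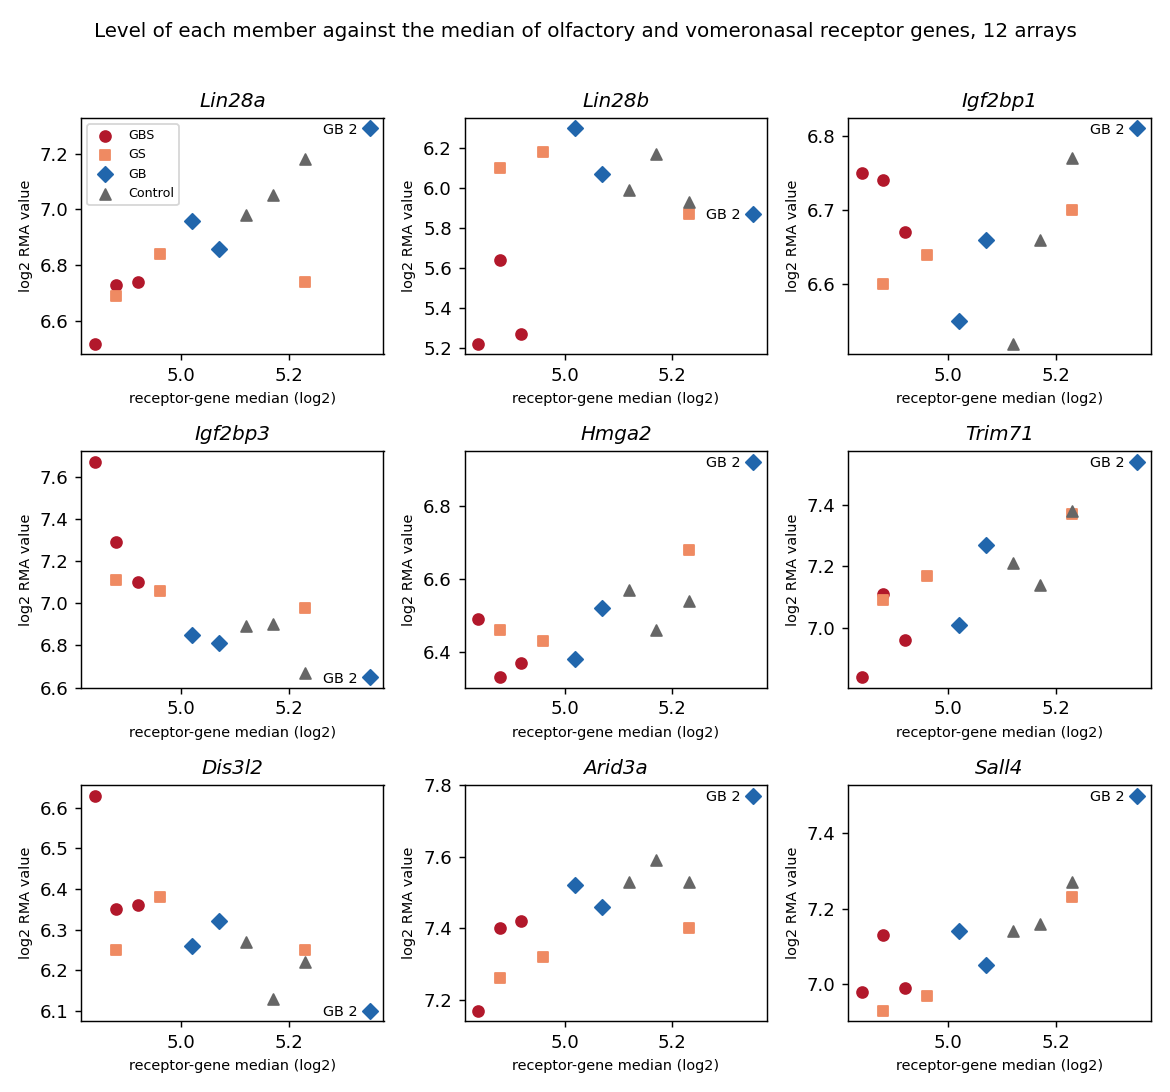
Level of each member (y axis, log2 RMA value) against the median of the olfactory and vomeronasal receptor genes on the same array (x axis, log2), with 1 point per array and colours for genotypes. GB replicate 2, marked GB 2, is at the right edge at 5.35 and is the top array for 6 members; the GBS arrays lie between 4.84 and 4.92, at the low end of the x axis, and the GS arrays lie at 4.88, 4.96 and 5.23.

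Levels of cell type markers moved with genotype as well. The counts below are from GBS against Control, where 8.04% of all genes were called higher and 3.59% lower. The mean level of 11 proliferation genes was 8.16 to 8.95 on GBS arrays, 7.24 to 7.6 on GS, 6.68 to 7.08 on GB and 6.82 to 6.98 on Control arrays. Of these 11, 8 rose in GBS against Control and none fell, among them the mitotic kinesin Kif11 by 2.5 (adjusted p = 0.000106) and the checkpoint kinase Bub1 by 2.77 (adjusted p = 0.000138). The mean of 10 radial glia genes was 7.91 to 7.97 in GBS and 7.41 to 7.52 in Control, with 5 higher and 1 lower. The mean of 10 genes of postmitotic neurons was 8.31 to 9.09 in GBS and 9.12 to 9.47 in Control, with 2 lower and none higher. Among other cell types, called genes were 0 of 8 for microglia, 1 higher of 8 each for endothelium and meninges, 1 higher of 7 for choroid plexus and 0 of 3 for erythroid cells. The part of these shifts in the member values was not tested.

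Between the members and their targets lie the let-7 genes. Of 12 listed, 10 had a probe set of their own (not Mirlet7b and Mirlet7c-2), and which part of a transcript it reads, precursor or mature, cannot be told from the table. Of these 10, 5 were dim, below the array median on all 12 arrays. None of the 10 was called in GBS against Control, beside 11.6% of all genes, with the smallest adjusted p at 0.0571, and 8 of 10 lay below 0. Their median difference was -0.28, beside -0.14 for all genes. Their mean level was 5.81 to 5.98 on GBS arrays, 5.79 to 6 on GS arrays, 6.02 to 6.12 on GB arrays and 6.05 to 6.18 on Control arrays, so GBS and GS overlapped.

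Genes that process or use let-7 form the next list. Of 24 measured, 3 rose in GBS against Control and none fell, where 8.04% of all genes were called higher and 3.59% lower. Their median was 0.47, beside -0.14 for all genes and -0.02 for genes past the 60th percentile filter. Of the 24, 15 lay above the array median on all 12 arrays. Ago1, an effector Argonaute, rose by 0.46 (adjusted p = 0.031), Xpo5, which exports precursors from the nucleus, by 0.48 (adjusted p = 0.0356), and Tnrc6a, a scaffold of the silencing complex, by 0.68 (adjusted p = 0.0394). These calls were lost in 9, 10 and 12 of 25 alternative settings. The uridylyl transferases that act with LIN28 were not called, at 0.82 for Tut4 (adjusted p = 0.247) and 0.67 for Tut7 (adjusted p = 0.211).

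Of 25 other reported let-7 targets measured, 7 rose and 1 fell in GBS against Control, with a median of 0.26. Among all genes 8.04% were called higher and 3.59% lower. Cdk6, a G1 kinase, averaged 8.15 ± 0.276 in GBS and 7.06 ± 0.0439 in Control (SD, n = 3 each) and rose by 1.09, or 2.13-fold (adjusted p = 0.00208). Ccnd2, its cyclin partner, rose by 0.95 (adjusted p = 0.00514), the cell cycle factor E2f5 by 1.08 (adjusted p = 0.00529) and the phosphatase Cdc25a by 0.66 (adjusted p = 0.00606). Acvr1c, an activin receptor, fell by 0.43 (adjusted p = 0.0461), a call lost in 15 of 23 settings. These 4 are the risers with the lowest adjusted p of the 7, and the proliferation genes named above rose in the same comparison. Myc and Mycn were not called, at -0.48 (adjusted p = 0.137) and 0 (adjusted p = 0.97). In GS against Control limma called no gene of any of these 3 lists, with medians of -0.19 for let-7 genes, 0.28 for processing genes and 0.02 for targets.

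**Figure D4:**
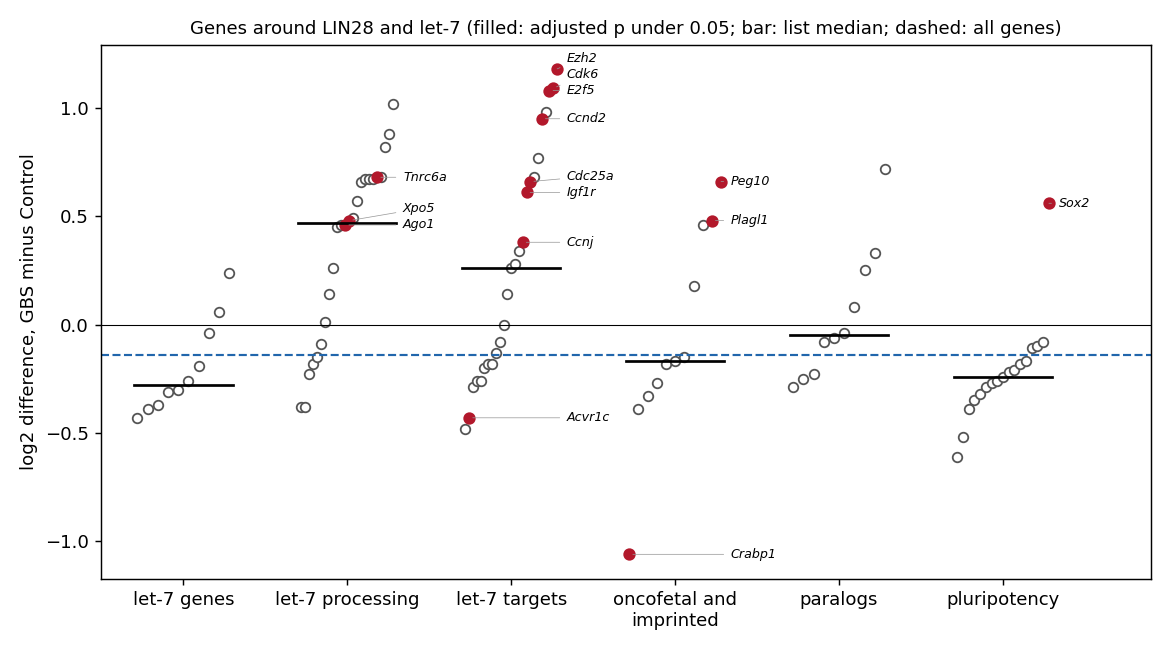
Log2 difference of each gene in GBS against Control (y axis) for lists of genes around LIN28 and let-7 (x axis); filled points have an adjusted p under 0.05, black bars are list medians and the dashed line is the median of all genes at -0.14. No let-7 gene is filled, and of the 8 called targets 7 lie above 0, with Cdk6 at 1.09, and Acvr1c lies at -0.43.

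Genes whose levels followed the called members most closely were found by Pearson's r over the 12 arrays. Clone names and predicted genes were left out of this ranking. The arrays fall into genotype groups and share the array effects above, so r is a description only. For Lin28a the 5 closest were Il34 (0.977), Oxt (0.977), Olfr1413 (0.972), Mettl22 (0.971) and Col1a2 (0.97), among them a receptor gene of the class used for the receptor level. For Lin28b they were Spock1 (0.962), Map6 (0.962), Otud1 (0.961), Scrn1 (0.956) and Mpv17l (0.951). Scrn1 shared its shape, with means of 6.99 in GBS, 7.85 in GS, 7.86 in GB and 7.85 in Control. For Igf2bp3 they were Gnai2 (0.978), Utp14a (0.976), Plekha3 (0.974), Med12 (0.973) and Atf7 (0.973). Among the members, r was 0.482 for Lin28a with Lin28b and -0.171 after group means were removed, while Lin28a with Arid3a gave 0.919 and 0.838.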

How the data were processed

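The deposited table holds log2 values for 35556 probe sets on 12 arrays; RMA and Affymetrix Expression Console are named in the submitters' processing notes, and the log2 scale was taken from the range of 2.82 to 13.83. The software version, probe set library and genome build were not given in the sources used here. A platform annotation gave 21789 probe sets 1 symbol and 1621 several, and left 12146 unlisted; 21698 were found in a RefSeq gene table, for 19938 genes. The smallest median absolute difference between arrays was 0.102, so no array repeats another. The number of arrays limits the precision, and detection above background was not tested, since no signal of background probes was used here.

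One limma 3.58.1 model (R 4.3.3, lmFit and eBayes, 1 mean per genotype, 8 residual and 3.29 prior degrees of freedom) gave 6 contrasts between genotypes and an interaction, two-sided, with Benjamini-Hochberg adjustment over all genes. The code was tested on simulated data. Alternatives were filters at the 40th and 60th percentile, quantile normalization, median centring, trend and robust variance, array weights (gene-by-gene method, since the default did not converge), probe sets averaged by gene, all probe sets, only the groups compared, the replicate block, an adjusted p under 0.01, the receptor level as a covariate, and omission of 3 deviating arrays or of each array. Members and gene lists were chosen with earlier results of these data known. The text names the 9 members, called genes of each list by adjusted p, the targeted genes and their read-outs, and the 5 genes most like Lin28a, Lin28b and Igf2bp3; Tut4, Tut7, Myc, Mycn and Xist were named after their values were seen. Replicate numbers were not used as pairs: over 18 same-number pairs of arrays, deviations from group means correlated at -0.818 to 0.739.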

Additional observations from a re-analysis of the deposited data

How the results depend on the processing

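The directions of Lin28a, Lin28b and Igf2bp3 in GBS against Control were the same in all settings that tested them. Only quantile normalization, median centring, array weights, the covariate and omission of GBS or Control arrays could move these differences. The other settings leave the difference as it was, so the same direction there is no further evidence. The calls of these members depended on the settings named above. With the receptor level as a covariate Hmga2 was 0.16, Trim71 0.05 and Sall4 0.14 in GBS against Control and Lin28a was 0.01 in GBS against GS, each of the opposite sign and uncalled. The cause was not tested. The replicate block left 1 member called in GBS against Control (Lin28b), 0 against GS and 1 against GB, and 1159, 380 and 705 genes.

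In GBS against Control, 3 members and 2319 genes became 1 member with quantile normalization or the covariate, 5 members and 9265 genes with array weights, 8623 genes with only the groups compared, 0 members and 658 genes at an adjusted p under 0.01, and 7439 genes without the 3 deviating arrays. The share of higher calls, 69.1% in the reported fit, was 43.8% with the covariate, 40.3% with array weights, 43.1% with only the groups compared, 47.6% without the 3 arrays and 45.7% without GB replicate 2. Leaving out 1 array gave 0 to 3 members and 723 to 7608 genes. In GBS against GS, 1 member and 701 genes became 0 members with quantile normalization, centring or an adjusted p under 0.01. Lin28b, the called member, passed neither filter and was not tested there, and 0 members were called with either filter. Genes were 2743 with array weights, 247 at 0.01, 2232 with the covariate and 2449 without the 3 arrays. With 1 array left out they were 266 to 1712 (0 to 1 members). In GBS against GB, 2 members and 1760 genes became 1 member with quantile normalization or the covariate and 0 with only the groups compared or 0.01. With either filter 1 member was called, and Lin28b was not tested. Genes were 4220, 89, 341, 1022 and 3757 with array weights, only the groups compared, 0.01, the covariate and without the 3 arrays. With 1 array left out they were 413 to 3862 (0 to 3 members).

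In GS against Control, 3 genes became 7398 and 0 members became 3 with array weights, and genes 1811 without the 3 arrays. In GB against Control, 0 genes became 1 with quantile normalization or trend and robust variance, 72 with array weights, 26 without the 3 arrays and 0 to 7 with 1 array left out. In GS against GB, 2 genes became 6, 1, 5, 1168 and 0 with quantile normalization, centring, trend and robust variance, array weights and only the groups compared, 1 with the block, 0.01 or all probe sets, 16 with the covariate, 87 without the 3 arrays and 1 to 10 with 1 array left out. For the interaction, 46 genes became 29, 28, 840, 16, 12, 25, 244 and 363 with quantile normalization, centring, array weights, the block, 0.01, all probe sets, the covariate and without the 3 arrays, and 15 to 57 with 1 array left out; array weights, the covariate and the omission of the 3 arrays each called 1 member. Only the groups compared gives no interaction, which needs all 4 genotypes. Among 44 further member differences, 2 of 1069 alternative values passed the threshold.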

Other observations

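Other oncofetal and embryonic genes were read beside the members in GBS against Control. Crabp1, a retinoic acid binding protein of the fetal brain, averaged 7.79 ± 0.298 in GBS, 8.5 ± 0.207 in GS, 8.65 ± 0.108 in GB and 8.85 ± 0.188 in Control (SD, n = 3 each), and fell by 1.06 (limma adjusted p = 0.00254), a call kept in all alternatives. The imprinted genes Peg10 and Plagl1 rose by 0.66 (adjusted p = 0.0178) and 0.48 (adjusted p = 0.0241), and each call was lost in 6 settings. Of 11 such genes measured, 2 rose and 1 fell, where 8.04% of all genes were called higher and 3.59% lower. Their median was -0.17, beside -0.14 for all genes.

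Of 17 pluripotency genes, Sox2 alone was called in GBS against Control, higher by 0.56 (adjusted p = 0.0242). Among all genes 8.04% were called higher and 3.59% lower, and Sox2 is also a radial glia gene. The other 16 lay below 0, with a list median of -0.24 beside -0.14 for all genes. Of the 17, 7, Pou5f1 among them, were below the array median on every array. Of 10 paralogs of the members with a probe set of their own, none was called (smallest limma adjusted p 0.0894), beside 11.6% of all genes. Their median was -0.05, beside -0.14 for all genes.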
